A study of Mus musculus with 6 samples.

Results

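The growth arrest genes described here are Gadd45a, Gadd45b, Gadd45g, Nupr1, Btg1, Btg2, Gas1, Ccng1 and Ccng2. All probe sets annotated to these 9 genes were taken, 20 of the 45037 probe sets that remained without controls, and each gene was represented among 18193 genes by its brightest probe set. The genes were chosen by their link to growth arrest and by the genotype differences of these same arrays, in which Nupr1 and Gadd45b were among the largest falls. The differences between genotypes of all 9 are therefore given as a description, with no p-value, and the counts of them called in the fit across all genes support nothing. Lenses were taken whole from transgenic and from wild-type Balb/c animals aged 2 days, and RNA of each genotype was read on 3 Affymetrix arrays. The labels name neither the transgene nor its promoter. The design text gives 12 lenses per genotype without saying how they were divided among the arrays, and nothing states that replicates came from separate animals, so the spread between arrays may be technical in part. The arrays are called T1 to T3 (transgenic) and W1 to W3 (wild-type).

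Lens epithelial cells divide at the front of the lens, leave the cell cycle at its equator and elongate into fiber cells. The GADD45 proteins are small acidic proteins that are induced by growth arrest and DNA damage, bind the kinase MAP3K4, the replication clamp PCNA and the CDK inhibitor p21, and feed stress signals to p38 and JNK. NUPR1 is a small stress-induced chromatin protein, and BTG1 and BTG2 restrain proliferation and recruit the CCR4-NOT deadenylase to mRNA. GAS1 is a membrane-anchored protein of arrested fibroblasts that also binds Hedgehog ligands. Cyclins G1 and G2 are atypical cyclins linked to growth arrest and to the phosphatase PP2A, the first a p53 target and the second a FOXO target.

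Within the set, the differences divided by family member. Nupr1, Gadd45b, Gadd45g and Ccng1 were lower in transgenic lenses, by 5.11-fold, 4.42-fold, 3.25-fold and 1.78-fold, and on each of them every transgenic array lay below every wild-type array. Gadd45a, Btg1, Btg2, Gas1 and Ccng2 differed by 0.36 or less on the log2 scale, and their groups overlapped. In the limma fit across all genes 4 of the 9 genes passed as lower and none as higher (adjusted p under 0.05), where 2.61% of all genes were called lower and 1.93% higher. The groups did not overlap in 4 of the 9 genes, all with the transgenic arrays lower, against 28.8% of all genes in either direction. Because the choice of the genes used this contrast, nothing is read from these counts. The median difference of the 9 genes was -0.18, beside 0.011 for all 18193 genes, and for the same reason nothing is read from it. In RNA of whole lenses, fewer cells of a type and less RNA per cell cannot be told apart.

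**Figure D1:**
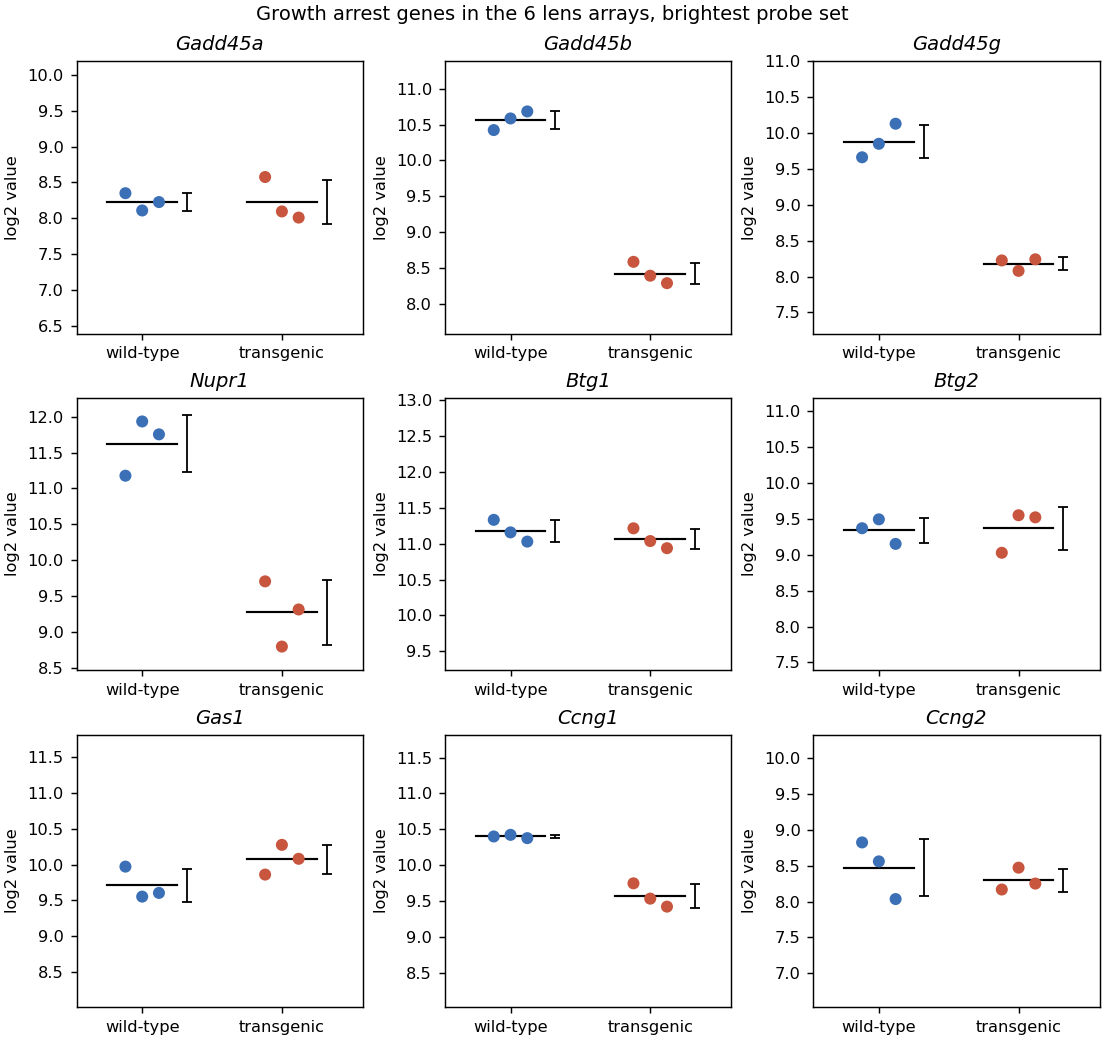
Normalised log2 values of the 9 genes by genotype, 1 point per array (blue, W1 to W3; red, T1 to T3, left to right), with the mean as a line and the SD over 3 arrays as a bar; all panels span the same number of log2 units, each around its own gene. The groups are apart in Gadd45b, Gadd45g, Nupr1 and Ccng1, and overlap in the other genes.

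The upstream sequences of the 3 GADD45 genes and of Nupr1 are shown because the GADD45 paralogs differed in response and because the 3 genes with the largest falls share a short word there. Each is the 250 bases before the annotated start, 5′ to 3′ on the gene's strand, from RefSeq (GRCm38.p6), in which all 9 genes had 1 entry. Capitals mark the E-box CACGTG, a word read by basic helix-loop-helix factors, and TGATGCAA (TTGCATCA on the other strand), a word read by dimers of C/EBP and ATF factors.
Gadd45b, chr10:80929841-80930090, plus strand: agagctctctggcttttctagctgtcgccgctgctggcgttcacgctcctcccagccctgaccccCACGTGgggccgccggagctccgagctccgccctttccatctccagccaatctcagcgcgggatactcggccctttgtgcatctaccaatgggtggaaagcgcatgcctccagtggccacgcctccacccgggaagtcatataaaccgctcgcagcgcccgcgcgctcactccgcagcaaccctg
Gadd45g, chr13:51846425-51846674, plus strand: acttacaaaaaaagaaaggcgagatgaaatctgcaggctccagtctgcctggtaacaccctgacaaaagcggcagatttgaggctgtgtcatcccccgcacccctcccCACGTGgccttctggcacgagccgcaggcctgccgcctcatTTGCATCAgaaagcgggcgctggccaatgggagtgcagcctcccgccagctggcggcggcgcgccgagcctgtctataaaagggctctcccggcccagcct
Nupr1, chr7:126625471-126625720, minus strand: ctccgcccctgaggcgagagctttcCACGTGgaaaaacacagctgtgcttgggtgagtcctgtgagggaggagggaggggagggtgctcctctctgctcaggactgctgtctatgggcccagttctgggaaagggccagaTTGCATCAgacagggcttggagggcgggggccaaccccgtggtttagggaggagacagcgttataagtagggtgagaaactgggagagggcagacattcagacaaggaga
Gadd45a, chr6:67037408-67037657, minus strand: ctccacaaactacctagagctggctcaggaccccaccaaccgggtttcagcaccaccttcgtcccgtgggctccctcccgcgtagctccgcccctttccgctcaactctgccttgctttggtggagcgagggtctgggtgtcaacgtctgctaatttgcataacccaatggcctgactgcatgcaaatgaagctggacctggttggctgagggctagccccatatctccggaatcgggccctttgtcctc

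CACGTG was found upstream of Gadd45b, Gadd45g and Nupr1 and in none of the other 6 genes, starting 185, 142 and 225 bases before the start. The word reads the same on both strands, and 6.02% of 32851 RefSeq promoters hold it in the same window. TGATGCAA, searched on both strands, was found in Gadd45g and Nupr1, at 101 and 110 bases before the start, and in 0.791% of promoters. The E-box was added to the search after these sequences had been read, so its presence in 3 of the 9 genes supports nothing. Among 83 genes that were called lower by at least 1 log2 unit and had a RefSeq promoter, 8 held CACGTG (9.64%, against 8.73% of 14452 tested genes), Gadd45b, Gadd45g and Nupr1 being 3 of the 8. TGATGCAA was held by 2 of the 83, which were Gadd45g and Nupr1 themselves (2.41%, against 0.74%). Of 391 genes with a RefSeq promoter called lower, 1.53% held it, and of 281 called higher, 1.07%. For CACGTG these shares were 12.0% and 9.25%. The same contrast defined these groups and was known when the 9 genes were chosen, so nothing is read from the shares. Other words fell elsewhere in the set. The cAMP response element TGACGTCA was found in Btg2 alone (1.55% of promoters) and the forkhead word TGTTTAC in Btg1 alone (3.17%), and the TATA box TATAAA in Gadd45b, Gadd45g and Btg1 (12.4%). CCAAT was found in 7 of the 9 genes, all but Nupr1 and Ccng2 (33.8%). Among the 14452 tested genes the shares were 2.5% for TGACGTCA, 3.04% for TGTTTAC, 10.5% for TATAAA and 39.4% for CCAAT. All words were searched on both strands, none of the marked words overlap, and a match is a description of the letters, not a bound site.

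The GADD45 family differed most among its own members. Gadd45b (1450971_at) read 8.59, 8.39 and 8.29 in T1 to T3 and 10.42, 10.59 and 10.68 in W1 to W3 (normalised log2 values). The 2 groups were 1.84 log2 units apart at their nearest arrays, more than the range within either group. The mean was 8.42 ± 0.15 in transgenic and 10.56 ± 0.13 in wild-type lenses (SD, n = 3), a difference of -2.14 ± 0.11 (limma's moderated SE). Gadd45b ranked 15 of 18193 genes by the size of its fall. A second probe set, 1449773_s_at, showed a difference of -2.35 ± 0.12 (SE), with values from 7.49 to 7.78 in transgenic and from 9.82 to 10.16 in wild-type arrays. The dimmest, 1420197_at, showed -0.69 ± 0.11 (SE), at a mean of 5.57 in transgenic lenses, close to the median of all probe sets (5.34). The 3 probe sets thus gave the same direction, and the dimmest gave the smallest difference.

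Gadd45g, with the single probe set 1453851_a_at, read 8.22, 8.08 and 8.24 in T1 to T3 and 9.66, 9.85 and 10.13 in W1 to W3. Every wild-type array was at least 1.42 log2 units above the highest transgenic array. The mean was 8.18 ± 0.09 in transgenic and 9.88 ± 0.24 in wild-type lenses (SD, n = 3), a difference of -1.70 ± 0.13 (SE), and the rank of the fall was 28 of 18193. Gadd45a, the family member that p53 is best known to induce, was measured by 1449519_at. It read 8.57, 8.09 and 8.01 in T1 to T3 and 8.35, 8.11 and 8.23 in W1 to W3. The groups overlapped, with T1 the highest of the 6 arrays and T3 the lowest. The difference was -0.0014 ± 0.15 (SE), and its sign turned with the setting, from -0.18 without T1 to 0.11 without T3.

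Nupr1 had the largest difference of the 9 genes and also the widest spread. Its brightest probe set, 1419666_x_at, read 9.70, 8.79 and 9.31 in T1 to T3 and 11.18, 11.93 and 11.75 in W1 to W3. T1 was the highest transgenic array and W1 the lowest wild-type array, and 1.47 log2 units separated them. The mean was 9.27 ± 0.46 in transgenic and 11.62 ± 0.40 in wild-type lenses (SD, n = 3), a difference of -2.35 ± 0.26 (SE), ranked 11 by size of fall. The other probe set, 1419665_a_at, differed by -2.27 ± 0.22 (SE) and placed the arrays in the same order. Both probe sets are annotated to the same gene and were read on the same arrays, so they are not separate evidence.

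The genes for the cyclins G also parted. Ccng1 (1420827_a_at) read 9.75, 9.53 and 9.42 in T1 to T3 and 10.40, 10.42 and 10.38 in W1 to W3. The wild-type arrays lay within 0.046 of each other, the narrowest range of the 20 probe sets. The mean was 9.57 ± 0.17 in transgenic and 10.40 ± 0.02 in wild-type lenses (SD, n = 3), a difference of -0.83 ± 0.10 (SE). The other 2 probe sets of Ccng1 showed larger differences, -1.18 ± 0.09 for 1450016_at and -1.04 ± 0.11 for 1450017_at (SE), so the brightest probe set gave the smallest of the 3. Averaged over its probe sets, the difference of Ccng1 was -1.02. Ccng2 (1416488_at) read 8.17, 8.47 and 8.25 in T1 to T3 and 8.82, 8.56 and 8.03 in W1 to W3. The wild-type arrays spanned 0.79 log2 units and took in all 3 transgenic arrays. The difference was -0.18 ± 0.19 (SE) there and 0.09 ± 0.16 on the second probe set, 1448364_at.

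Neither BTG gene was apart between genotypes on its brightest probe set. Btg1 (1426083_a_at) read 11.21, 11.04 and 10.94 in T1 to T3 and 11.33, 11.16 and 11.03 in W1 to W3, a difference of -0.11 ± 0.11 (SE). The second probe set, 1437455_a_at, differed by 0.06 ± 0.22. The third, 1442018_at, was the only 1 of the 20 probe sets with a mean under the median of all probe sets, at 5.32, and differed by -0.35 ± 0.11 with groups 0.13 log2 units apart. Btg2, an early target of p53 and of growth factor signals, read 9.03, 9.55 and 9.52 in T1 to T3 and 9.37, 9.50 and 9.15 in W1 to W3 (1416250_at). T1 was the lowest array and the other transgenic arrays were the highest, with a difference of 0.03 ± 0.16 (SE) whose sign turned to -0.05 on the deposited values and to -0.09 after the arrays were shifted to a common median. The other probe set of Btg2, 1448272_at, differed by 0.15 ± 0.09, and its groups were apart by 0.0026 log2 units.

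Gas1 was the gene whose difference lay farthest above 0. On 1416855_at it read 9.86, 10.27 and 10.08 in T1 to T3 and 9.97, 9.55 and 9.60 in W1 to W3. The groups overlapped, since W1 exceeded T1. The difference was 0.36 ± 0.15 (SE) on this probe set, 0.30 ± 0.14 on 1448494_at and -0.04 ± 0.14 on the dimmest, 1456322_at. Markers of retinal pigment epithelium and melanocytes, 8 genes, had a summed level of 12.28 in T2, the array with the highest Gas1, and of 10.65 to 11.29 in the other 5 (log2 of the summed linear values). Markers of fibroblasts, 7 genes, had a summed level of 13.68 in T3 and of 9.68 to 10.22 in the other arrays. The Gas1 difference was 0.26 without T2, 0.36 without T3 and 0.49 without W1, which were the lowest, a middle and the highest value with 1 array left out. The part of the marker levels in it was not tested.

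**Figure D2:**
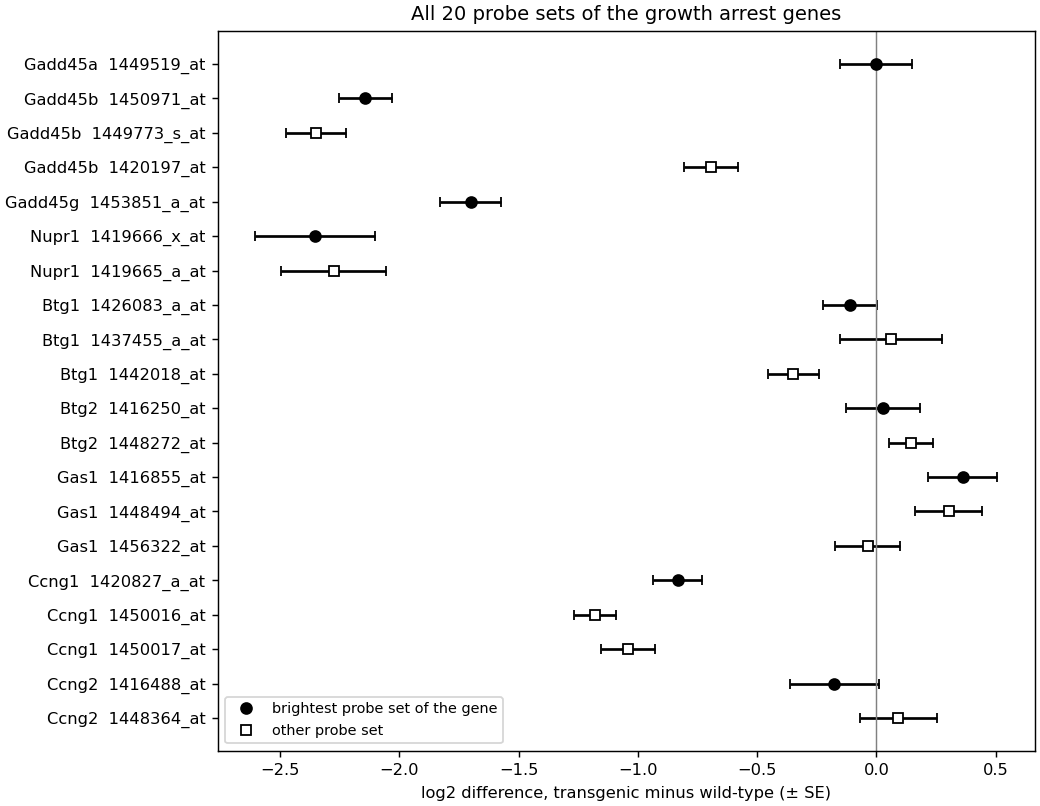
Log2 differences of the 20 probe sets, transgenic minus wild-type, with limma's moderated SE from the fit of every probe set on its own; filled circles are the brightest probe set of a gene and open squares the others. All probe sets of Gadd45b, Gadd45g, Nupr1 and Ccng1 lie below 0 by 0.69 or more, and all others lie within 0.37 of 0.

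Over the 20 probe sets, 14 differences were below 0 and 6 above. With every probe set fitted on its own, 9 were called lower and none higher, beside 2.21% of all 45037 probe sets called lower and 3.68% called in either direction. The 9 were the 3 probe sets of Gadd45b, the single 1 of Gadd45g, the pair of Nupr1 and the 3 of Ccng1, so in each of the 4 genes all probe sets gave 1 direction. Groups did not overlap in 11 of the 20, beside 27% of all probe sets, and the additional 2 were those of Btg1 and Btg2 named above. The contrast had been used in choosing the genes here too.

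**Figure D3:**
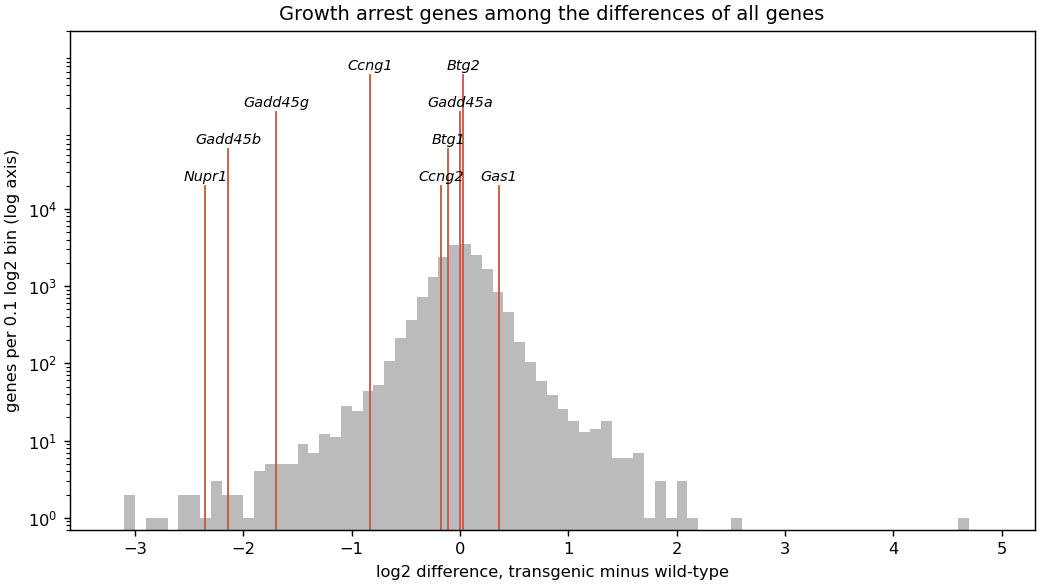
Histogram of the log2 differences of all 18193 genes, transgenic minus wild-type (grey, log axis), with the 9 growth arrest genes as red lines. Nupr1, Gadd45b and Gadd45g lie in the thin left tail, Ccng1 at -0.83, and the other 5 genes within the bulk.

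With any single array left out, the difference ran from -2.57 to -2.11 for Nupr1, from -2.22 to -2.08 for Gadd45b, from -1.81 to -1.58 for Gadd45g and from -0.92 to -0.76 for Ccng1. T3 carried transcripts of other tissues: 12 markers of skin and cornea epithelium had a summed level of 14.90 there against 10.81 to 11.51 in the other arrays, and 13 skeletal muscle markers 13.27 against 9.01 to 9.78. Without T3 the difference was -2.37 for Nupr1, -2.08 for Gadd45b, -1.73 for Gadd45g and -0.76 for Ccng1. Of 17 neural retina markers 16 were below 0 (median -0.39), with summed levels of 11.20 to 11.93 in transgenic and 11.65 to 12.29 in wild-type arrays. Among them only Sncg was called, as lower (-0.84; limma adjusted p = 0.0331). The part of the retina markers in the 4 falls was not tested. Lens markers were present on all arrays: none of 13 stayed under the median of all probe sets. Their summed level, 17.15 to 17.23, is carried by crystallins near the top of the arrays' range and can show little change. Of the 13, 8 were below 0 (median -0.064). Bfsp1 (-1.66) and Prox1 (-1.04), genes of fiber cells, were called lower. Foxe3 (4.64), a gene of the lens epithelium, was called higher and ranked 1 of 18193 genes by the size of its rise. The labels do not name the transgene, so this rise is not read as a measure of epithelial cells. The rest were not called, among them Bfsp2 (-0.45), Pax6 (-0.22) and Mip (0.043). The part of the lens markers in the 4 falls was not tested. The summed levels of endothelial (10.51 to 10.90), leukocyte (9.46 to 10.15) and erythroid markers (7.62 to 7.97) overlapped between genotypes, and 3 of the 5 erythroid genes stayed under the median of all probe sets in all arrays. Of these markers only the endothelial gene Tek was called, as higher (0.49; limma adjusted p = 0.0465).

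The profiles nearest to Nupr1 and Gadd45b were found by the root mean square distance between log2 values centred on each gene's mean over the 6 arrays, among 11926 genes. Nearest to Nupr1 were Dnase2b, the nuclease gene of fiber cells (distance 0.26), the synaptic adhesion gene Lrrtm2 (0.28), Gadd45b itself (0.30) and the zinc finger gene Prdm16 (0.31). In Dnase2b as in Nupr1, W1 was the lowest wild-type array and T1 the highest transgenic array. Nearest to Gadd45b were the heme oxygenase gene Hmox1 (0.09), Dipk2a (0.10), Prdm16 (0.11) and the cation channel gene Trpc6 (0.12). Prdm16 was therefore close to both. It read 7.58, 7.34 and 7.18 in T1 to T3 and 9.11, 9.42 and 9.72 in W1 to W3. Nupr1 took only place 23 among the profiles nearest to Gadd45b. Lrrtm2 and Trpc6 had means of 4.33 and 4.41 in transgenic lenses, under the median of all probe sets. The likeness rests on 6 arrays and mostly on the genotype difference, since genes with a difference of the same size come out near each other. Of these genes, Dnase2b, Dipk2a, Prdm16 and Trpc6 had a RefSeq promoter, and none of the 4 held CACGTG or TGATGCAA.

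**Figure D4:**
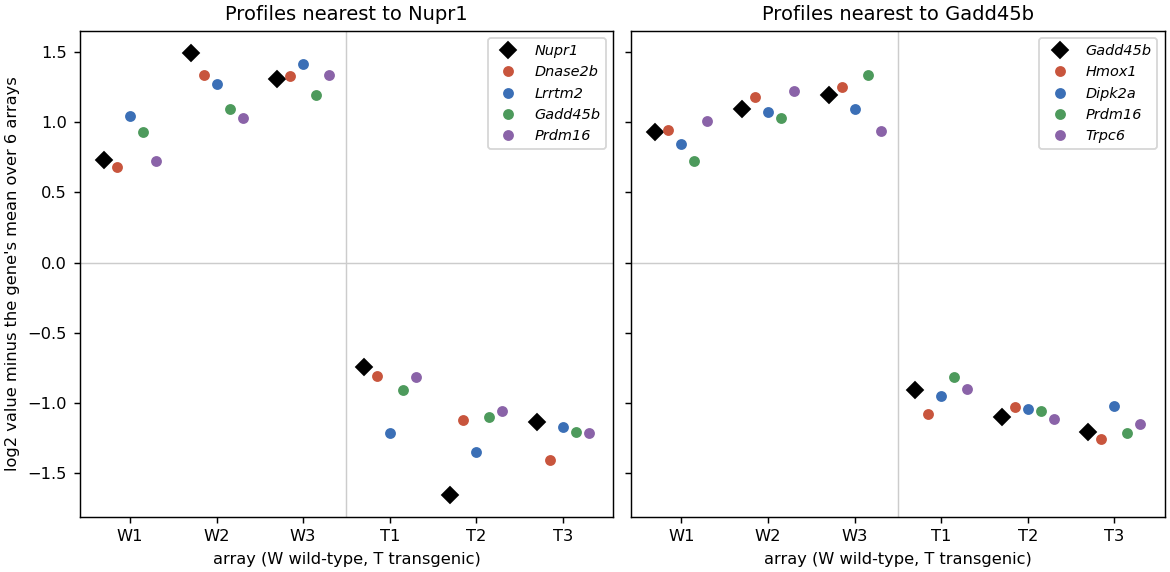
Log2 values of each array minus the gene's mean over the 6 arrays, for Nupr1 (left) and Gadd45b (right, black diamonds) and the 4 genes with the nearest profiles (coloured points, set side by side within each array). All of them lie above 0 in W1 to W3 and below 0 in T1 to T3.

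Genes next to the 9 on the chromosome, by the RefSeq annotation of GRCm38.p6 and among measured genes, were mostly not called. The exceptions were both neighbours of Nupr1, singled out after their values were seen: Apobr fell by 0.56 ± 0.12 (SE; limma adjusted p = 0.0426) and Sgf29 by 0.46 ± 0.08 (0.0194). The mean of Apobr was 5.47 in transgenic lenses and 6.04 in wild-type ones, near the median of all probe sets. None of the other 16 neighbours was called. The nearest of Gadd45b were Lmnb2, at -0.22, and Gng7, at -0.04, and those of Gadd45g were Sema4d and a gene with a provisional symbol, at 0.03 and 0.01.

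Other genes of the pathways around the 9 were taken from lists, without the 9 themselves. Their shares called are given beside 4.55% of all genes called in either direction. The lists were chosen with earlier results of these data known, so the shares are a description and not an independent check. Of 33 measured p53 regulators and targets, 3 fell and 1 rose (12.1%), with a median difference of 0.016. The fallen genes were the antioxidant gene Sesn1 (-0.89 ± 0.10, SE; limma adjusted p = 0.00427), the BH3-only death gene Pmaip1 (-0.72; 0.0254) and the death receptor gene Fas (-0.55; 0.0404), and the kinase gene Plk3 rose (0.63 ± 0.08; 0.00639). Ccng1 is a p53 target that was lower as well, while the p53 target Cdkn1a, the gene of p21, differed by 0.90 ± 0.32 without passing (limma adjusted p = 0.152) and Mdm2 by -0.0070. The difference of Cdkn1a was 0.47 without T3. Pmaip1 had means of 3.88 (transgenic) and 4.60 (wild-type), both under the median of all probe sets. The calls of the list fell from 4 to 2, with 1 rise and 1 fall, without T1, T2, W2 or W3. The call of Pmaip1 was lost in 5 of the 6 fits with 1 array left out and that of Fas in all 6, whereas Sesn1 and Plk3 passed in all 6. Other probe sets of Sesn1 above that median differed by -0.80 and -0.42, and with the mean of its probe sets Sesn1 did not pass (limma adjusted p = 0.0927).

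Among 21 genes for GADD45 partners and stress kinases, Map3k5, which encodes the stress-activated kinase ASK1, was lower by a log2 difference of -1.43 ± 0.13 (SE; limma adjusted p = 0.00170), and the remaining 20 missed the threshold (4.76% called). Its second probe set differed by -1.99. Map3k4, whose product is the kinase that GADD45 proteins bind directly, differed by 0.22 (limma adjusted p = 0.187). The clamp gene Pcna differed by -0.15, the mitotic kinase gene Cdk1 by -0.42 and the p38 and JNK kinase gene Map2k4 by 0.23, and none passed.

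The genes named GADD for their induction by growth arrest and DNA damage did not share 1 direction. Ddit3, also called Gadd153, a transcription factor gene of the unfolded protein response, rose by 0.97 ± 0.10 (SE; limma adjusted p = 0.00252). Ppp1r15a, also called Gadd34, a phosphatase subunit gene that ends the stress block on translation, fell by 0.73 ± 0.12 (limma adjusted p = 0.0210), and was singled out for its name after its value was seen. The call of Ppp1r15a was lost without T2, W2 or W3 (highest limma adjusted p = 0.0900). Both belong to the list of the integrated stress response, of whose 25 genes 6 rose and 1 fell (28%). The risers among the 4 with the smallest p were Atf3 (1.11 ± 0.08), Ddit3, the serine synthesis gene Psat1 (0.68) and the pseudokinase gene Trib3 (0.67), while Atf4, the gene of the factor that drives the response, differed by -0.31 without passing (limma adjusted p = 0.147). Nupr1 is known as a gene that ATF4 induces, and it was lower on every transgenic array while those 4 genes were higher. Of the 25 genes of the list 11 were below 0, and a link between Nupr1 and the list was not tested. With 1 array left out, the calls of this list ran from 3 to 8: 3 rose and none fell without W3, 4 rose and none fell without T2 or W2, 4 rose and 1 fell without T1, 5 rose and 1 fell without T3, and 6 rose and 2 fell without W1. Trib3 lost its call without W2 or W3 and with the mean of its probe sets (limma adjusted p = 0.0627). The probe set of Atf3 had a mean of 5.16 over the 6 arrays, under the median of all probe sets. The second probe set of Psat1 differed by 0.31. That of Ddit3, also under the median, differed by 0.11.

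None of 17 measured genes for the other BTG and TOB proteins and for CCR4-NOT passed, and the median difference was -0.066. The lowest p-values belonged to Cnot6l (0.32, limma adjusted p = 0.0896), Tob1 (0.36; 0.127), Pabpc1 (-0.24; 0.133) and Tob2 (0.44; 0.139). The second brightest probe set of Tob2 went the other way, by -0.58. Of 26 genes of the GAS group and Hedgehog signalling, the Hedgehog-binding inhibitor gene Hhip rose by 0.85 ± 0.15 (SE; limma adjusted p = 0.0254), and the remaining 25 missed the threshold (3.85% called). Other probe sets of Hhip differed by 0.38 and 1.28, and its call was lost without T2, W1, W2 or W3. The Hedgehog co-receptor genes Boc and Cdon, whose proteins act beside GAS1, differed by 0.25 and 0.027. The growth arrest gene Gas2 differed by -0.63 and just missed the threshold (limma adjusted p = 0.0572), while Gas5, Gas6 and Gas7 differed by -0.17, -0.025 and 0.043. This probe set of Gas2 had a mean of 5.47, near the median of all probe sets. Its other probe set, under that median, differed by 0.20.

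Of 14 genes for cyclin G partners and PP2A subunits, Ppp2r5e, which encodes a regulatory B56 subunit of PP2A, fell by 0.93 ± 0.09 (SE; limma adjusted p = 0.00238), and the remaining 13 missed the threshold (7.14% called). A further 4 probe sets of Ppp2r5e went the same way, by -1.14, -0.37, -1.56 and -0.28. Its paralog Ppp2r5a differed by 0.35 (limma adjusted p = 0.0642). Of 22 FOXO factors and targets, the sestrin gene Sesn3 rose by 0.48 ± 0.08 (limma adjusted p = 0.0238) and 21 did not pass (4.55% called), and this call was lost in 5 of the 6 fits with 1 array left out, W1 being the exception. Sesn1 and Sesn3, both sestrin genes, therefore passed in opposite directions.

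Of 16 genes for CDK inhibitors, D cyclins and pocket proteins, Cdkn1c, the gene of the p57 inhibitor of lens fiber cells, rose by 0.39 ± 0.08 (SE; limma adjusted p = 0.0327), and the remaining 15 missed the threshold (6.25% called). The call of Cdkn1c was lost with any 1 array left out (limma adjusted p up to 0.124). Cdkn2c (-0.43), Ccnd3 (0.36) and Rb1 (0.41) did not pass. Of 20 immediate early genes, a class to which Btg2 and Gadd45b are often counted, Zfp36, which encodes an mRNA-destabilising protein, fell by 0.81 ± 0.15 (limma adjusted p = 0.0269) and Ier5 by 0.49 (0.0439), and 18 did not pass (10% called). Fos differed by 0.78 and Klf6 by -0.41 without passing. The calls of Zfp36 and Ier5 were lost in 5 of the 6 fits with 1 array left out, T3 being the exception. Of 17 NF-kB factors and targets, the inhibitor gene Nfkbib fell by 0.57 ± 0.11 (limma adjusted p = 0.0316), a call lost in 5 of the 6 such fits, and 16 did not pass (5.88% called). With the mean of its probe sets, of which the other was dim and differed by 0.11, Nfkbib differed by -0.23 and did not pass (limma adjusted p = 0.125). Nfkbia, an NF-kB target gene, differed by 0.37 on its brightest probe set (limma adjusted p = 0.0926) and by -0.10 to 0.078 on 4 others above the median of all probe sets.

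**Figure D5:**
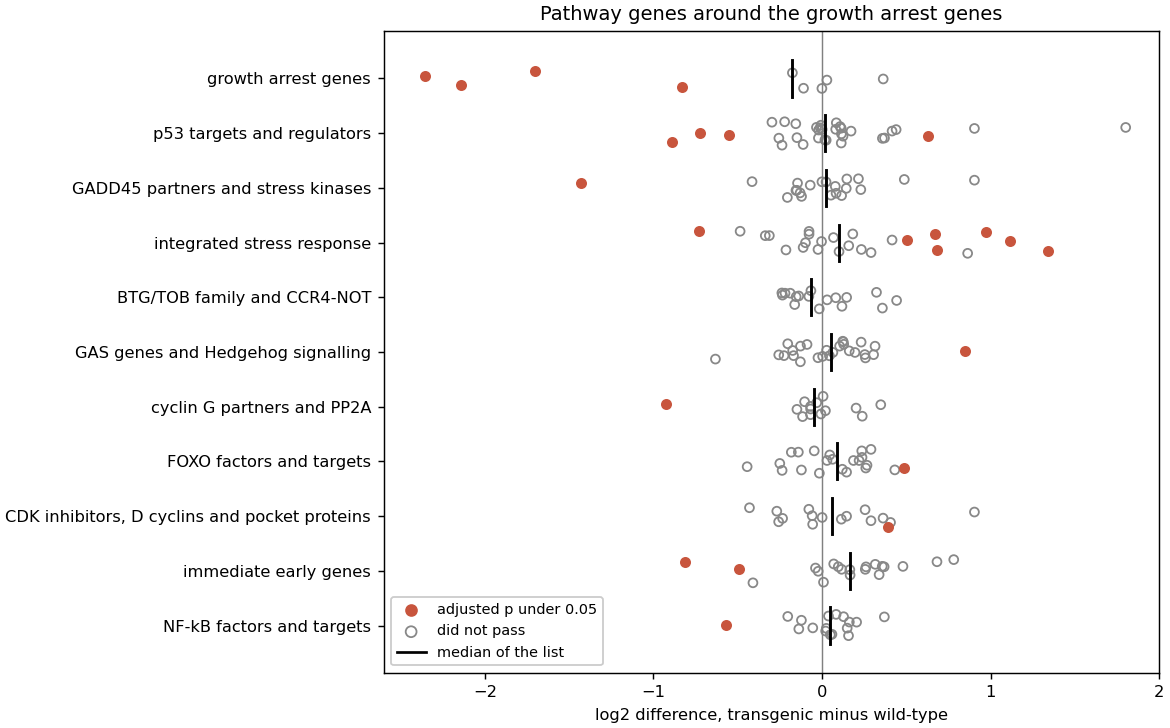
Log2 differences, transgenic minus wild-type, of the 9 growth arrest genes (top) and of the measured genes of 10 pathway lists, 1 point per gene with random vertical spread; filled points passed at an adjusted p under 0.05 (limma), open points did not, and black bars are list medians. The list medians lie between -0.066 and 0.17, beside -0.18 for the growth arrest genes. The 9 genes and the lists were chosen with earlier results of these data known, so nothing is read from the medians.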

How the data were processed

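The authors deposited 1 log2 value per probe set and array, for 3 transgenic and 3 wild-type lens arrays. That the scale is log2 was read from the range (2.68 to 14.8). For the summary, the normalization before deposit and the genome build, the method was not given in the sources used here. Per the labels' protocols, labelling was by in vitro transcription.

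After 64 control probe sets were set aside, the upper quartiles of the arrays differed by 0.120, over a limit of 0.1, and values were quantile normalised (limma 3.58.1, R 4.3.3). No array duplicated another. Gene symbols came from the platform annotation at GEO and were updated through RefSeq (GRCm38.p6): 34945 probe sets had 1 symbol, 932 several and 9160 none. Genes were compared with limma (lmFit, eBayes; Benjamini-Hochberg over all genes, threshold 0.05), a fit tested on simulated data. The number of arrays limits the precision.

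Named were all 9 members, up to 4 genes with the smallest p of each list, and 4 nearest profiles for Nupr1 and Gadd45b. For the profiles alone, provisional symbols and genes whose higher group was under the median of all probe sets were left out. Further names outside this rule are the markers Bfsp1, Bfsp2, Prox1, Foxe3, Pax6, Mip, Sncg and Tek, and the chromosomal neighbours. Others are Mdm2, Map3k4, Pcna, Atf4, Ppp1r15a, Boc, Cdon, Gas5, Gas6 and Gas7. All of these were taken for their roles, calls or position after values were seen. The members and lists were chosen with earlier results of these data known. Alternatives were other normalizations, filters, probe set summaries, variance models, array weights, a replicate block and each array left out. Same-numbered arrays correlated by 0.015, 0.087 and 0.028 in their deviations from the group means, so the numbers were not treated as pairs.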

Additional observations from a re-analysis of the deposited data

How the results depend on the processing

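The members were chosen with this contrast known, so the stability of their calls over these same arrays is a description. The count of 4 members called lower held under every alternative run except the ordinary test without moderation, where it was 2. That test also gave 3 of the 20 member probe sets in place of 9, 124 genes in place of 827 and 4 pathway genes in place of 19. No called member changed sign. Averaging a gene's probe sets moved Gadd45b to -1.73 and Ccng1 to -1.02. Counting every probe set gave 1656 calls, and array weights gave 1389 genes. With the replicate number as a block, which the arrays' correlations do not bear out as a pairing, 223 genes, 7 pathway genes and the same number of members, 4, were called. With 1 array left out, which also leaves fewer samples, genes called ran from 226 to 574, pathway genes from 7 to 15, member probe sets from 8 to 9 and members stayed at 4. The 352 genes higher and 475 lower became 252 and 666 when arrays were shifted to a common median. The probe sets 1442018_at of Btg1 and 1420197_at of Gadd45b had means of 5.32 and 5.92 over all arrays, beside a median of 5.34 for all probe sets. Whether low signal limited their differences was not tested.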
